A study of Mus musculus with 6 samples.

Results

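The 10 genes described here are luminal mammary and milk genes, taken by symbol from the 41214 genes counted in each library. They are the prolactin receptor gene Prlr, the transcription factor genes Stat5a and Stat5b, the milk protein genes Csn2, Csn3, Wap and Ltf, and the luminal surface genes Muc1, Cd24a and Prom1. They were measured by RNA sequencing in mouse mammary tumour explant cells that derive from NMuMG, an epithelial line established from the normal mouse mammary gland, and express the receptor tyrosine kinase ErbB2. The shCdGAP group (3 libraries, genotype label CdGAP KD) carried a short hairpin RNA against CdGAP, the product of Arhgap31, which switches off the GTPases Cdc42 and Rac1. The shCTL group (3 libraries, genotype label WT) carried a control hairpin, and both groups share the NMuMG origin and the ErbB2 expression. The labels do not give the number of hairpins, clones, tumours or cultures behind the libraries, so the p-values below reflect library-to-library spread that may be technical only. An explant can also hold cells of the host.

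In the mammary gland, prolactin binds its receptor on luminal epithelial cells and activates the kinase JAK2, which phosphorylates STAT5A and STAT5B. The STAT5 dimers enter the nucleus, bind a palindromic DNA element and switch on milk protein genes such as those of the caseins and whey acidic protein. CISH and the SOCS proteins are targets of this pathway that restrain it. Luminal cells also carry the transmembrane mucin MUC1 and the small glycosylated surface protein CD24, and a subset of them carries prominin 1, all at or near the apical face.

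RefSeq promoters (GRCm38.p6, 250 bases before to 50 bases after the transcription start) were found for 8 of the 10 genes, as 13 promoters. They were searched on both strands for the core of the STAT5 element, TTCNNNGAA, and for the E-box bound by ZEB repressors, CACCTG, since the series title concerns CdGAP acting with Zeb2. The 2 motifs share no letters in any promoter printed here. Those of Csn2, Muc1 and Prlr are shown because they stand for a classical STAT5 target without reads, the member with the largest rise and the receptor upstream. Of the 3 Prlr promoters, the one shown is the only one that holds either motif. Each is written 5′ to 3′ on the strand of its gene, with motif matches in capitals.
Csn2 (chr5:87699376-87699675, minus strand): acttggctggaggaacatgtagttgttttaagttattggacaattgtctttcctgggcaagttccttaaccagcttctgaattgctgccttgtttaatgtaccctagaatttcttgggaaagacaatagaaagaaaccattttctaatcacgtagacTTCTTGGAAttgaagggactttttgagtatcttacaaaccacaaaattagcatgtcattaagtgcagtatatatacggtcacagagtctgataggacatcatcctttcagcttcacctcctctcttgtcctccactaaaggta
Muc1 (chr3:89228806-89229105, plus strand): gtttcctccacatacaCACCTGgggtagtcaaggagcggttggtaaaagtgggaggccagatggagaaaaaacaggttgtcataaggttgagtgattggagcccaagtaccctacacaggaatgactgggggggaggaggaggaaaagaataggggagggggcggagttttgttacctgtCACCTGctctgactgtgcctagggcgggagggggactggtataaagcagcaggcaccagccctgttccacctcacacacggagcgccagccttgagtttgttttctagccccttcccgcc
Prlr (chr15:10223656-10223955, plus strand, 1 of its 3 promoters): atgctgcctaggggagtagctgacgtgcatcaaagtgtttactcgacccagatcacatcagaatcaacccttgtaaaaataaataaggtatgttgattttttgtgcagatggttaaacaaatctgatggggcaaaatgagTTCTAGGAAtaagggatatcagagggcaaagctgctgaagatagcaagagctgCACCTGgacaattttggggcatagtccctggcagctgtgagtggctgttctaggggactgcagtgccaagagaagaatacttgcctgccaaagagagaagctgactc
The Csn2 promoter held 1 STAT5 core, TTCTTGGAA, whose first base lay at -93 from the start. The Muc1 promoter held the E-box at -234 and at -70 and no STAT5 core. The Prlr promoter shown held a STAT5 core at -110 and the E-box at -57. A STAT5 core stood in 2 of the 13 promoters of these genes and in 8.30% of all 32851 promoters in the table, and the E-box in 5 of the 13 and in 20.2% of all. These matches describe the letters and are not evidence of binding.

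Fragments assigned to genes ran from 19176540 to 26824249 per library. Levels are given in CPM, that is, per 1000000 fragments of the TMM-scaled library total. Genes with an adjusted p under 0.05 in edgeR's quasi-likelihood test are called. Of 13483 tested genes, 10.4% were called higher and 11.4% lower in shCdGAP, 21.7% in all. Arhgap31, the targeted gene, was at 1.70, 9.16 and 8.21 CPM in shCdGAP replicates 1 to 3, against 13.2, 14.4 and 15.1 CPM in shCTL. It lay below every shCTL library in all 3 shCdGAP libraries, with shCdGAP replicate 1 far below its replicates, and it missed the threshold (log2 fold change -1.16 ± 0.55, SE, adjusted p = 0.19). Without shCdGAP replicate 1 the log2 fold change was -0.71 and passed (adjusted p = 0.00407).

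Of the 10 genes, Muc1 and Cd24a rose in shCdGAP, Csn3 fell, and Stat5a and Stat5b were tested without passing. Prlr, Ltf, Prom1, Csn2 and Wap had too few counts for the test. So 5 of the 10 entered it, and the 2 called higher and 1 called lower are read beside the 10.4% and 11.4% of all tested genes called in each direction, or 21.7% in either. The groups did not overlap for Muc1, Cd24a, Csn3 and Stat5b, and the same was true of 44.1% of all tested genes. In bulk RNA, fewer cells of a type and less RNA per cell cannot be told apart.

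**Figure D1:**
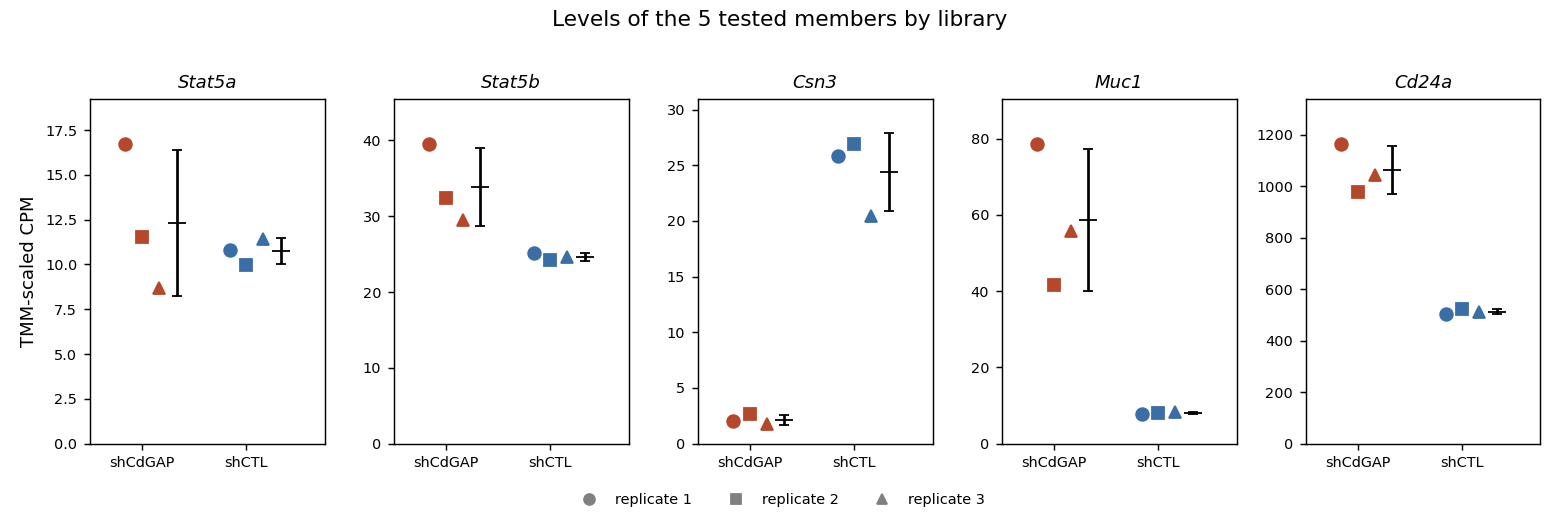
TMM-scaled CPM (linear axis from 0) of the 5 tested genes in each library, shCdGAP left of shCTL, with 1 symbol per replicate number and the mean ± SD (n = 3) in black. Muc1 and Cd24a lie higher in all 3 shCdGAP libraries, Csn3 lies lower, Stat5b lies higher by less than the threshold of the test, and Stat5a overlaps.

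Prlr, the receptor that starts the pathway, was close to the limit of detection. It had 0, 0 and 0 counts in the shCdGAP libraries, against 5, 6 and 3 counts in the shCTL libraries. All 14 fragments therefore came from shCTL, and the groups did not overlap. A floor of 3 counts over the shCdGAP group corresponds to 0.0431 CPM. With that floor, Prlr was at least 4.43-fold lower in shCdGAP if the 14 shCTL fragments are taken as exact. The counting error of those 14 is not in this bound. Prlr (ENSMUSG00000005268) lies on chromosome 15 from 10177238 to 10349180 of GRCm38, and the predicted gene Gm21973 overlaps it on the same strand with 0 counts. Fragments that fall on both genes are assigned to neither.

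The STAT5 genes were expressed in both groups. Stat5b was at 39.5, 32.5 and 29.5 CPM in shCdGAP replicates 1 to 3, against 25.2, 24.2 and 24.6 CPM in shCTL. Each shCdGAP library lay above each shCTL library, and the shCdGAP libraries were spread about as widely as the groups were apart. The mean of 33.8 ± 5.16 CPM in shCdGAP against 24.6 ± 0.509 CPM in shCTL (SD, n = 3 each) gave a log2 fold change of 0.46 ± 0.143 (SE) that missed the threshold (adjusted p = 0.0676, edgeR). It passed in DESeq2 (adjusted p = 0.0197) and without shCdGAP replicate 1 (log2 fold change 0.34, adjusted p = 0.0262). Stat5a, its close relative, was at 16.7, 11.5 and 8.68 CPM in shCdGAP, against 10.8, 9.97 and 11.4 CPM in shCTL. The shCdGAP libraries lay on both sides of the shCTL libraries, and the log2 fold change of 0.19 ± 0.254 did not pass (adjusted p = 0.638, edgeR). Without shCdGAP replicate 1 it was -0.080.

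Stat5b (ENSMUSG00000020919, minus strand, 100780731 to 100850724) and Stat5a (ENSMUSG00000004043, plus strand, 100859351 to 100885169) are neighbours on chromosome 11. Of all 50-base stretches in the GENCODE transcripts, 8.21% of those of Stat5a and 11.0% of those of Stat5b occur in the other gene, and fragments that lie wholly in such stretches cannot be told apart. The end of Stat5a also overlaps Stat3 on the opposite strand. The headers give a strand-specific count, so the fragments of this pair were counted apart.

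Among Csn2, Csn3, Wap and Ltf, the milk protein genes, Csn3 alone had more than a few counts. Csn3, which encodes kappa-casein, the protein that stabilises casein micelles, was at 2.01, 2.63 and 1.74 CPM in shCdGAP, against 25.8, 26.9 and 20.4 CPM in shCTL. All shCdGAP libraries were far below all shCTL libraries, and neither group had a library apart from its replicates. Its mean was 2.13 ± 0.454 CPM in shCdGAP and 24.4 ± 3.47 CPM in shCTL (SD, n = 3 each), which is 11.5-fold lower in shCdGAP (log2 fold change -3.52 ± 0.224, SE, adjusted p = 0.000313, edgeR). These levels rest on 147 fragments in shCdGAP and 1783 in shCTL. Of the 50-base stretches of Csn3, 0.984% occur in transcripts of other genes, 123 in number. How many of its fragments came from such stretches was not measured.

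The rest of the casein cluster had no counts. Csn3 (ENSMUSG00000001622) lies on chromosome 5 from 87925579 to 87932665 (GRCm38, plus strand), at one end of the cluster. Csn1s1, Csn2, Csn1s2a and Csn1s2b, which lie on the same chromosome between 87666224 and 87824426, each had 0 counts in all 6 libraries. So did Odam, which lies between Csn1s2b and Csn3 and encodes a protein of the tooth surface. The same was true of 1700066N21Rik, which overlaps Csn3 on the opposite strand. Csn2 (beta-casein; ENSMUSG00000063157, 87692624 to 87699421) is the gene whose promoter with a STAT5 core is printed above.

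Wap, which encodes whey acidic protein (ENSMUSG00000000381, chromosome 11 from 6635482 to 6638637), also had 0 counts in all 6 libraries. For Csn2 and Wap alike the absence of counts leaves room for levels of up to 0.0431 CPM over the shCdGAP group and 0.0408 CPM over the shCTL group (a floor of 3 counts, counting error only). Ltf encodes lactoferrin, an iron-binding protein of milk and of neutrophil granules (ENSMUSG00000032496, chromosome 9 from 111019292 to 111042766). It had 1, 0 and 4 counts in shCdGAP, against 0, 2 and 1 in shCTL. The groups overlapped, and the ratio of 1.76 had an exact 95% interval from 0.342 to 11.3, so no difference was detectable at this depth.

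**Figure D2:**
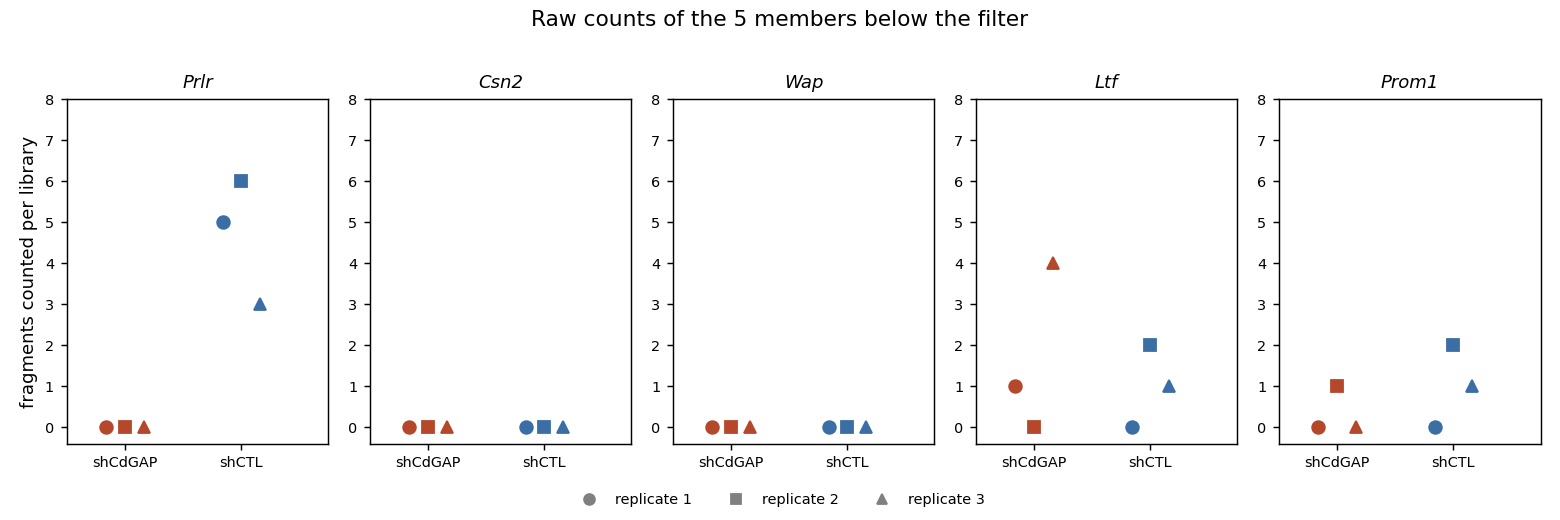
Raw fragment counts (linear axis) of the 5 genes that did not enter the test, by library, shCdGAP left of shCTL, with 1 symbol per replicate number. Prlr was counted only in the 3 shCTL libraries (3 to 6 fragments), Csn2 and Wap stay at 0 throughout, and Ltf and Prom1 lie between 0 and 4 in both groups.

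The surface genes held the most abundant member and the largest rise. Muc1 encodes a transmembrane mucin of the apical membrane (ENSMUSG00000042784, chromosome 3 from 89229057 to 89233381, plus strand). It was at 78.5, 41.5 and 55.9 CPM in shCdGAP replicates 1 to 3, against 7.84, 8.08 and 8.24 CPM in shCTL. All shCdGAP libraries lay well above the narrow range of the shCTL libraries, and shCdGAP replicate 1 was the highest. The mean of 58.6 ± 18.7 CPM in shCdGAP against 8.05 ± 0.2 CPM in shCTL (SD, n = 3 each) was 7.28-fold higher (log2 fold change 2.86 ± 0.25, SE, adjusted p = 0.000868, edgeR). The Muc1 log2 fold change without shCdGAP replicate 1 was 2.61. No 50-base stretch of its transcripts occurs in another gene.

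Cd24a encodes a small surface protein held by a lipid anchor, widely used to sort luminal from basal mammary cells (ENSMUSG00000047139, chromosome 10 from 43579169 to 43584262). It was at 1163, 979 and 1045 CPM in shCdGAP, against 505, 522 and 510 CPM in shCTL. The groups were apart, and the shCTL libraries lay close together. Cd24a averaged 1062 ± 93.5 CPM in shCdGAP and 512 ± 8.87 CPM in shCTL (SD, n = 3 each), 2.07-fold higher (log2 fold change 1.05 ± 0.105, SE, adjusted p = 0.00127, edgeR). Of the 50-base stretches of Cd24a, 2.75% occur in 1 other gene, Gm6212. The share of Cd24a fragments that came from such stretches was not measured.

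Prom1, which encodes prominin 1, a protein of membrane protrusions (ENSMUSG00000029086, chromosome 5 from 43993625 to 44102032), was near 0. It had 0, 1 and 0 counts in shCdGAP, against 0, 2 and 1 in shCTL. The groups overlapped, and the ratio of 0.351 had an exact 95% interval from 0.0067 to 4.38.

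Levels per kilobase of exon ordered the tested genes differently in the groups. The length used is that of all annotated exons of a gene (4152 bases for Csn3). The transcript present may be shorter, so the order between genes depends on this length, while a gene's change between groups does not. In shCdGAP the order was Cd24a (586 ± 51.6 CPM per kilobase), Muc1 (25.0 ± 7.96), Stat5b (6.10 ± 0.931), Stat5a (1.73 ± 0.571) and Csn3 (0.513 ± 0.109). In shCTL it was Cd24a (283 ± 4.89 CPM per kilobase), Csn3 (5.87 ± 0.836), Stat5b (4.45 ± 0.0919), Muc1 (3.43 ± 0.0851) and Stat5a (1.51 ± 0.103). The SDs of neighbours in either order did not meet. Stat5b exceeded Stat5a in both groups. By this measure Csn3 held the second place in shCTL and the last in shCdGAP.

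Muc1, Cd24a, Stat5a and Stat5b each had their highest level in shCdGAP replicate 1, the library with the lowest Arhgap31. The part of that library in these values is measured by leaving it out. That changed no call of Muc1, Cd24a or Csn3. It turned the direction of Stat5a, a difference that passed in neither case. Stat5b alone changed its call, with an adjusted p of 0.0676 with all libraries and 0.0262 without that library.

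**Figure D3:**
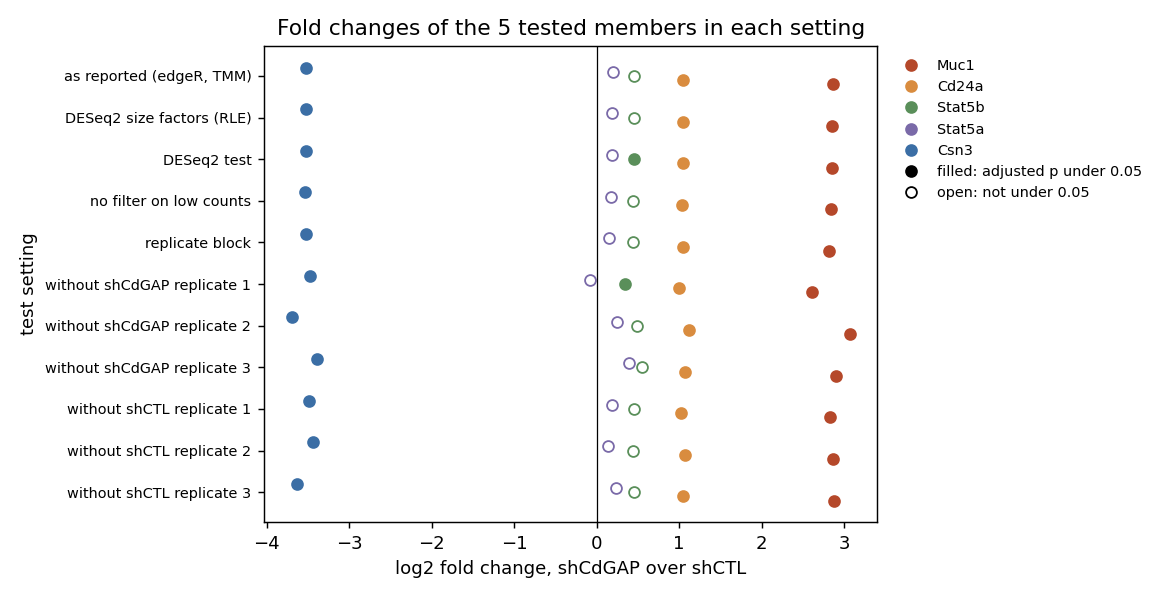
Log2 fold change (shCdGAP over shCTL, x axis) of the 5 tested genes under the reported test and 10 alternatives (y axis), filled where the adjusted p was under 0.05. Muc1 and Cd24a stay to the right and Csn3 to the left, all filled, while Stat5b is filled in 2 alternatives and Stat5a in none.

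Of 18 genes for partners of the receptor and of STAT5, 17 were tested, 2 rose and 3 fell in shCdGAP. That is near the 10.4% and 11.4% of all tested genes called higher and lower, so the count is no result about the list, and the counts of the lists below are given beside the same shares. The median log2 fold change of the tested ones was 0.03, and that of all tested genes was 0.01. Cish, a STAT5 target that inhibits the receptor complex, rose to 5.64 ± 1.99 CPM in shCdGAP, against 0.866 ± 0.069 CPM in shCTL (log2 fold change 2.69 ± 0.322, adjusted p = 0.00247). Cav1, which encodes the membrane scaffold caveolin 1, known in mouse mammary cells to hold back prolactin signalling, rose to 481 ± 40.1 CPM in shCdGAP, against 233 ± 4.66 CPM in shCTL (adjusted p = 0.00116). Both rises were larger than the spread between replicates, and the groups did not overlap.

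The partners that fell were Vav2, Pias3 and Socs1. Vav2 fell to 39.0 ± 2.12 CPM in shCdGAP, against 70.6 ± 6.57 CPM in shCTL (adjusted p = 0.00391). Pias3, which encodes an inhibitor of STAT DNA binding, fell to 25.4 ± 1.87 CPM in shCdGAP, against 37.6 ± 0.86 CPM in shCTL (adjusted p = 0.0156). Leaving out any one of the shCTL libraries ended the Pias3 call (adjusted p as high as 0.0787). Socs1, another feedback inhibitor, passed narrowly (0.787 ± 0.361 CPM in shCdGAP, 2.02 ± 0.468 CPM in shCTL, adjusted p = 0.0498). The Socs1 call ended without shCdGAP replicate 2 or any one of the shCTL libraries (adjusted p up to 0.175), and also with DESeq2 size factors (0.0509) and with no filter on low counts (0.0557). Socs1, and Socs2, Jak2 and Erbb4 given next, were picked after their values were seen. Socs2, a further STAT5 target, was at 22.2 ± 6.34 CPM in shCdGAP and 35.4 ± 1.42 CPM in shCTL (adjusted p = 0.0707), and passed in DESeq2 (adjusted p = 0.0193) and without shCdGAP replicate 1 (adjusted p = 0.00134). Jak2, the kinase bound to the receptor, was at 165 ± 17.9 CPM in shCdGAP and 165 ± 32.1 CPM in shCTL (adjusted p = 0.986). Erbb4, a receptor that also activates STAT5 in the mammary gland, had 0 counts in all libraries. Without shCdGAP replicate 1, 5 partners were called higher and 5 lower, and without any one of the shCTL libraries 1 was called lower.

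Many other genes of milk and lactation had few or no counts. Of 25 genes in this list, 10 were tested, and 6 had 0 counts in every library, namely Csn1s1, Csn1s2a, Csn1s2b, Lalba, Wfdc18 and Glycam1. Among the tested ones 3 rose and 1 fell, with a median log2 fold change of 0.13. Trf, which encodes the iron carrier transferrin, rose to 29.0 ± 13.7 CPM in shCdGAP, against 4.19 ± 0.758 CPM in shCTL (log2 fold change 2.79 ± 0.374, adjusted p = 0.00377). Its relative lactoferrin is the product of Ltf, which had 5 counts in shCdGAP and 3 in shCTL. Atp2c1, which encodes a calcium pump of the Golgi, rose to 104 ± 5.21 CPM in shCdGAP, against 69.6 ± 1.67 CPM in shCTL (adjusted p = 0.00699), and its call was lost without shCTL replicate 2 (adjusted p = 0.0549).

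The third gene of milk that rose was Lcn2, and the one that fell was Pthlh. Lcn2, which encodes the siderophore-binding protein lipocalin 2, was at 1.12, 34.0 and 89.4 CPM in shCdGAP replicates 1 to 3, against 0.361, 1.06 and 0.941 CPM in shCTL (adjusted p = 0.0366). Its lowest shCdGAP library barely exceeded the shCTL libraries. The Lcn2 call ended without shCdGAP replicate 2, shCdGAP replicate 3 or any one of the shCTL libraries (adjusted p as high as 0.134). It was named after its values were seen. Pthlh, which encodes the parathyroid hormone-related protein, had 1 count in shCdGAP and 48 in shCTL (adjusted p = 0.00477), and its level in shCTL over that in shCdGAP was 45.5 (exact 95% interval 7.79 to 1835). Plin2, Xdh and Btn1a1, genes of milk fat secretion, did not pass in edgeR. Plin2, which coats lipid droplets, was at 391 ± 133 CPM in shCdGAP and 634 ± 4.91 CPM in shCTL (adjusted p = 0.0801). Xdh was at 34.9 ± 29.3 CPM in shCdGAP and 29.0 ± 1.92 CPM in shCTL (adjusted p = 0.777), and Btn1a1 at 0.262 ± 0.16 CPM in shCdGAP and 0.431 ± 0.15 CPM in shCTL (adjusted p = 0.352). Plin2 passed as lower in DESeq2 (adjusted p = 0.0257) and with no filter on low counts (0.0453). Without shCdGAP replicate 1, Plin2 (adjusted p = 9.31e-05) and Xdh (adjusted p = 0.00233) passed as lower. These 3 genes too were picked after their values were seen. Without shCTL replicate 2, 1 gene of this list was called higher, and without shCdGAP replicate 1, 4 were called lower.

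Krt8 and Krt18, the keratin pair of simple and luminal epithelium, were abundant in all libraries, while several luminal markers had no counts. Krt8 was at 4473 ± 1406 CPM in shCdGAP and 3611 ± 805 CPM in shCTL (adjusted p = 0.505). Krt18 was at 3433 ± 741 CPM in shCdGAP and 3042 ± 474 CPM in shCTL (adjusted p = 0.603). Krt8 passed without shCdGAP replicate 1 (adjusted p = 0.0368). Elf5, the luminal factor that acts with STAT5 in alveolar cells, had 1 count in shCdGAP and 2 in shCTL, Kit had 0 in shCdGAP and 1 in shCTL, and Pgr, Cldn3, Tnfsf11, Sox10 and Muc15 had 0 in both groups. Kit marks luminal progenitors, Pgr and Tnfsf11 hormone-sensing cells. These genes were picked after their values were seen.

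Of 30 other luminal lineage genes, 19 were tested, 5 rose and 4 fell, with a median log2 fold change of 0.11. Tspan8, a tetraspanin of luminal cells, rose to 185 ± 11.9 CPM in shCdGAP, against 35.9 ± 2.83 CPM in shCTL (log2 fold change 2.36 ± 0.112, adjusted p = 0.00016). The epithelial ETS factor gene Ehf was at 50.8, 66.8 and 92.4 CPM in shCdGAP, against 0.103, 0.509 and 0.301 CPM in shCTL (adjusted p = 0.000291). The other luminal genes that rose were Krt7, a keratin gene, Id2, which encodes an inhibitor of basic helix-loop-helix factors, and Wnt4, a target of progesterone in hormone-sensing cells. Foxa1, a pioneer factor of hormone-sensing luminal cells, fell to 7.12 ± 1.14 CPM in shCdGAP, against 32.2 ± 5.88 CPM in shCTL (log2 fold change -2.18 ± 0.202, adjusted p = 0.00103). Tbx3, a T-box factor of the same cells, had 1 count in shCdGAP and 79 in shCTL (ratio of shCTL over shCdGAP 74.9, exact 95% interval 13.1 to 2996, adjusted p = 0.00175). Esr1, which encodes the oestrogen receptor, and Areg, which encodes the growth factor that relays its signal, also fell. The Krt7 call ended without shCdGAP replicate 2 or any one of the shCTL libraries (adjusted p up to 0.077). Krt7, Id2, Wnt4, Esr1 and Areg were named after their values were seen. Without shCdGAP replicate 1, 9 luminal genes were called higher.

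**Figure D4:**
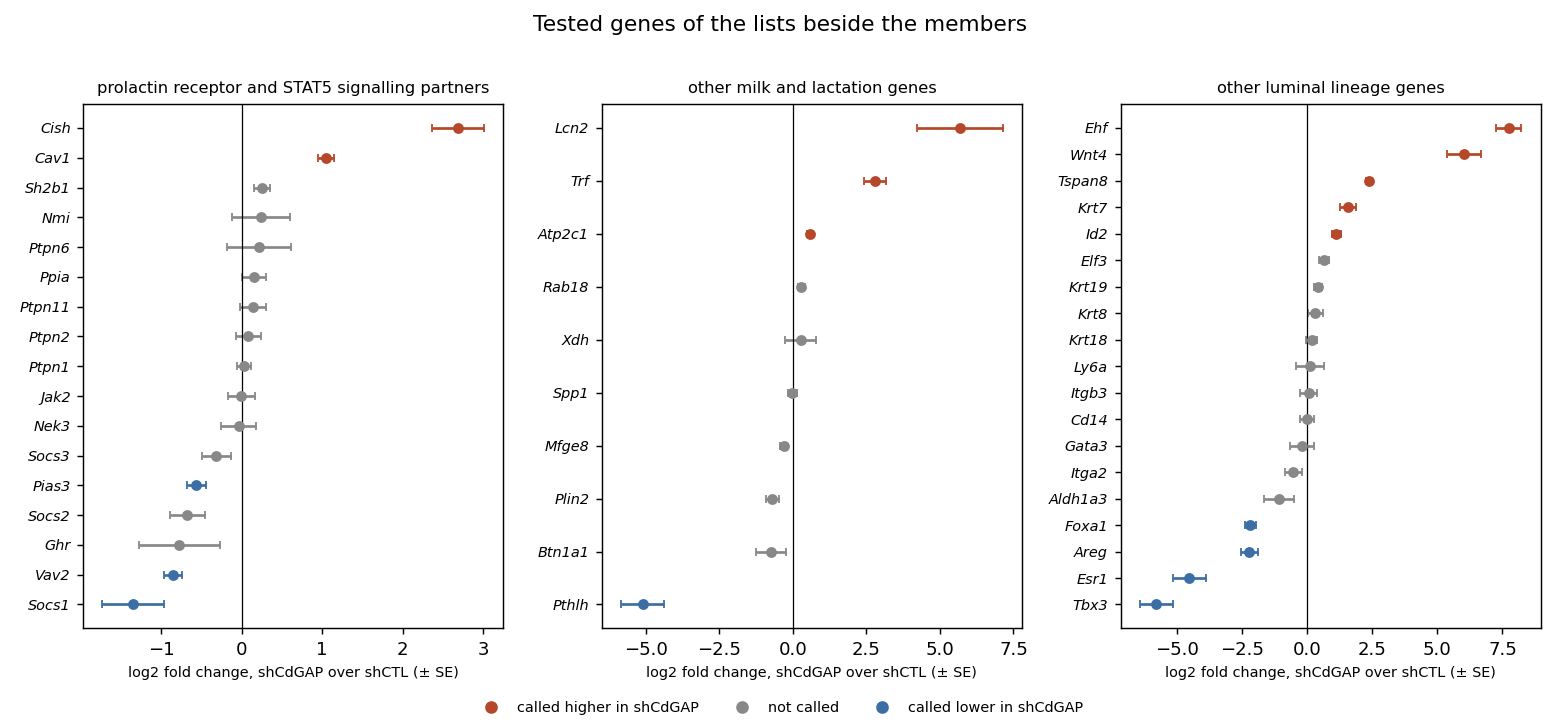
Log2 fold change (shCdGAP over shCTL, x axis, bars ± SE) of each tested gene in 3 lists, with 17, 10 and 19 genes, coloured by the call of the edgeR test. Changes run in both directions in each list, with Cish, Lcn2 and Ehf at the top and Socs1, Pthlh and Tbx3 at the bottom.

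Basal and myoepithelial genes also went both ways. Of 20, 10 were tested, 2 rose and 4 fell, with a median log2 fold change of -0.63. Cnn1, which encodes the smooth muscle protein calponin, rose to 3.16 ± 2.00 CPM in shCdGAP, against 0.0637 ± 0.0809 CPM in shCTL (adjusted p = 0.00598). Sparc, a matrix protein gene, rose to 885 ± 221 CPM in shCdGAP, against 463 ± 62.3 CPM in shCTL (adjusted p = 0.0251). The Sparc call held without shCdGAP replicate 1 and ended without any of the other libraries (adjusted p as high as 0.11). Procr, a marker of a basal progenitor population in the mouse gland, fell to 0.0713 ± 0.0231 CPM in shCdGAP, against 28.1 ± 0.243 CPM in shCTL (adjusted p = 5.64e-05). The integrin gene Itga6 fell to 112 ± 8.53 CPM in shCdGAP, against 550 ± 102 CPM in shCTL (adjusted p = 0.00042). Krt5 and Krt14 encode the keratin pair of basal cells. Krt5 had 2 counts in shCdGAP and 100 in shCTL and fell (adjusted p = 0.00138), and Krt14 had 1 in shCdGAP and 3 in shCTL. Acta2, a smooth muscle actin gene, had 0 counts in all libraries. Krt5, Krt14 and Acta2 were picked after their values were seen.

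Markers of other cell types were low. The 8 fibroblast markers summed to 3.41 to 7.06 CPM in shCdGAP libraries and 5.35 to 6.29 CPM in shCTL libraries, with Lum and Thy1 at 0 counts and none of the 2 tested called. Those 2 were Col1a1 (2.72 ± 0.8 CPM in shCdGAP, 1.60 ± 0.251 CPM in shCTL) and Pdgfra (2.42 ± 1.41 CPM in shCdGAP, 3.94 ± 0.61 CPM in shCTL), and Pdgfra passed without shCdGAP replicate 1 (adjusted p = 0.00809). The 9 immune markers summed to 6.62 to 18.2 CPM in shCdGAP and 18.7 to 23.6 CPM in shCTL, with Adgre1 at 0, and 1 of the 3 tested, Itgam, rose to 1.41 ± 0.236 CPM in shCdGAP, against 0.213 ± 0.123 CPM in shCTL (adjusted p = 0.00788). The most abundant immune marker was Cd68, a gene of macrophage lysosomes. Its level was 10.9, 5.53 and 2.93 CPM in shCdGAP, against 21.7, 15.4 and 15.6 CPM in shCTL. It made up most of the immune sum in the shCTL libraries and in shCdGAP replicate 1. In shCdGAP replicates 2 and 3 it was below the sum of the other 8 markers. Cd68 was not called (adjusted p = 0.0709), but it passed as lower in DESeq2 (0.00835), with no filter (0.0405), with the replicate block (0.0322) and without shCdGAP replicate 1 (0.000899). Csf1r, the receptor gene of macrophages, was at 3.86 ± 1.98 CPM in shCdGAP and 1.87 ± 0.738 CPM in shCTL (adjusted p = 0.206). Cd68 and Csf1r were named after their values were seen. The 5 endothelial markers summed to 0 to 0.159 CPM in shCdGAP and 1.05 to 1.24 CPM in shCTL. Emcn was at 0. Tek, the 1 tested, had 0 counts in shCdGAP against 31 in shCTL (adjusted p = 0.00586, and 0.0547 with the replicate block). With a floor of 3 counts and the 31 shCTL fragments taken as exact, Tek was at least 9.80-fold lower in shCdGAP. Without shCdGAP replicate 3, shCTL replicate 2 or shCTL replicate 3, Tek did not enter the test. The 5 adipocyte markers summed to 0.179 to 0.634 CPM in shCdGAP and 1.46 to 2.53 CPM in shCTL, with Plin1 and Cfd at 0 and Fabp4, the 1 tested, lower in shCdGAP (0.377 ± 0.234 CPM, against 1.99 ± 0.599 CPM in shCTL, adjusted p = 0.0169). The Fabp4 call was lost without shCdGAP replicate 2, shCTL replicate 1 or shCTL replicate 3 (adjusted p up to 0.0709). The immune, endothelial and adipocyte sums lay, like Csn3 and Prlr, lower in every shCdGAP library. The sums were taken again without the most abundant marker of each list, a choice made after the data were seen. Without Cd68 the immune sum turned round, with 7.33, 6.17 and 3.69 CPM in shCdGAP, against 1.91, 3.27 and 3.31 CPM in shCTL. Without Pdgfra the fibroblast sum was 3.08, 3.94 and 2.18 CPM in shCdGAP, against 1.70, 1.96 and 1.69 CPM in shCTL, higher in every shCdGAP library, as Muc1 and Cd24a were. Without Cdh5 the endothelial sum stayed lower in shCdGAP (0.134, 0 and 0.119 CPM, against 0.877, 0.728 and 0.677 CPM in shCTL). Without Fabp4 the adipocyte sum was 0 in the shCdGAP libraries, against 0, 0.109 and 0.0752 CPM in shCTL. The part of these markers in the results for the 10 genes was not tested.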

How the data were processed

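RNA from 3 shCdGAP and 3 shCTL libraries was sequenced, per the labels. Each deposited file held 1 library's unnormalized fragment counts. Per the file headers, the authors made these counts with featureCounts 1.4.6 on TopHat alignments and the Ensembl release 77 annotation of GRCm38, counting whole read pairs with strand setting 2. The submitters' processing notes name Trimmomatic 0.30, TopHat2 2.0.14, Cuffdiff 2.2.1 and DESeq. Symbols came from GENCODE M21 (40254 of 41214 IDs) and promoters from RefSeq.

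Changes were computed with edgeR 4.0.16 in R 4.3.3 (filterByExpr with minimum count 10 and minimum total 15, TMM, quasi-likelihood F test, Benjamini-Hochberg adjustment over the 13483 tested genes), and every adjusted p comes from that test unless another tool is named. SE is the absolute log2 fold change over the square root of F. The steps were also run on simulated counts, in which no library was set apart from its replicates as shCdGAP replicate 1 was. The 10 alternatives were DESeq2 1.42.0, its size factors, no filter, the replicate block and each library left out. One count was worth 0.0364 to 0.0516 CPM, and intervals cover counting error only. No 2 libraries of a group agreed within sampling noise, so each counted as a replicate. A spread beyond that noise does not show that the libraries are independent. The closest, shCTL replicates 2 and 3, had a chi-square of 3.00 per degree of freedom. With them, shCTL replicate 1 gave 26.0 and 26.9. The shCdGAP replicates 2 and 3 gave 13.5, and shCdGAP replicate 1 stood far from both, at 150 and 194. Same-numbered libraries deviated together (correlations of 0.36, 0.29 and 0.25 over tested genes), so a pairing by number was tried, from the data alone. It entered only the replicate block, an alternative, and the reported test was unpaired. Differently numbered pairs gave -0.35 to 0.25, and shCdGAP replicate 2 with shCTL replicate 3 (0.25) and shCdGAP replicate 3 with shCTL replicate 2 (0.19) also deviated together, so by number only replicate 1 stood apart. The 10 members and the 8 other lists were chosen with earlier results of these data known. Named beside the members were Arhgap31 and, from each list, up to 2 risen and 2 fallen genes, ranked by adjusted p, with the 2 most abundant genes taken where nothing passed.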

Additional observations from a re-analysis of the deposited data

How the results depend on the processing

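The calls of Muc1, Cd24a and Csn3 held in all 10 alternatives. With a library left out, log2 fold changes ran from 2.61 to 3.06 for Muc1, from 0.99 to 1.11 for Cd24a, from -3.69 to -3.39 for Csn3, from 0.34 to 0.55 for Stat5b and from -0.080 to 0.40 for Stat5a. Stat5b passed in DESeq2 (0.45). Prlr entered the test only with no filter on low counts, where it was called lower (log2 fold change -5.24, adjusted p = 0.0382) and 2 members were called lower in all. With no filter, Ltf (adjusted p = 0.727) and Prom1 (0.594) were not called. The replicate block changed no call of a member.

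With a library left out, all tested genes called higher numbered 538 (without shCTL replicate 2) to 2753 (without shCdGAP replicate 1) and those called lower 856 to 3032, without the same libraries. Members called higher numbered 2 to 3 and members called lower 1 in each case. Partners of the receptor and STAT5 numbered 2 to 5 higher and 1 to 5 lower, milk genes 1 to 3 and 1 to 4, luminal genes 4 to 9 and 4 to 6, and basal genes 1 to 2 and 3 to 6. Fibroblast, immune, endothelial and adipocyte markers called lower numbered 0 to 1 each. Milk genes called lower numbered 2 in DESeq2 and 2 with no filter. Immune markers called lower numbered 1 in DESeq2, 1 with no filter and 1 with the replicate block, and endothelial markers called lower 2 with no filter and 0 with the replicate block. The replicate block changed no other list count by more than 1.5 times. Where a call changed, the cause was not tested. Depth limits Prlr, Ltf and Prom1, with 14, 8 and 4 fragments over all libraries.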
